A study of Mus musculus with 6 samples.

Results

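The Kruppel-like factors described here are 10 genes, Klf2, Klf3, Klf4, Klf5, Klf6, Klf7, Klf9, Klf10, Klf12 and Klf13, out of 19939 genes measured in the series. They were chosen by symbol, with earlier results of these data known. Each had exactly 1 probe set that carried its symbol alone, so no choice between probe sets was needed. All 10 could be tested, and no filter on low values was applied. They were compared between a tetraploid line of mouse embryonic fibroblasts, labelled as having abnormal DNA content and called transformed in the series title, and a diploid counterpart that the labels call normal and a control. Both lines were grown in medium with serum to near confluence, and each was measured on 3 Affymetrix whole-transcript arrays. The labels give no genotype beyond the DNA content, no agent, no embryonic age and no time point. With 1 line of each kind, effects of ploidy, of transformation and of the line itself cannot be told apart. Nothing in the labels says that replicate samples came from separate cultures, and p-values then measure only the spread between these samples, which may be technical.

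Kruppel-like factors are transcription factors that share a block of zinc fingers at the end of the protein and bind GC-rich and CACCC sequences in promoters, often the same ones as the related SP factors. They differ in the partners that the rest of the protein recruits. Klf2, Klf4, Klf5, Klf6 and Klf7 can bind acetyltransferases and act mostly as activators, Klf3 and Klf12 bind the corepressor CtBP, and Klf9, Klf10 and Klf13 bind the corepressor Sin3A. In fibroblasts several of them are induced within minutes of serum or growth factor addition, and Klf10 by TGF-beta. Klf4 is also known as a factor used to reprogram fibroblasts into pluripotent cells.

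All values are log2 signals as deposited. A background level was set on each array at the 95th percentile of 1027 olfactory receptor genes, which fibroblasts should not use. It lay between 7.015 and 7.407, with 10231 to 11319 genes above it per array. Array medians lay within 0.0435 of each other, so a difference is a shift against the typical gene and not an amount per cell. Whether fewer cells of a kind or less RNA per cell lowered a signal cannot be told apart in such samples.

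Most of the 10 members lay lower in the tetraploid line, and Klf4 stood furthest apart. The members were chosen with earlier results known, so their counts describe these 10 and not the whole family. Of the 7 other measured KLF genes none passed the test, 1 lay below the diploid values on every tetraploid array, and the median difference was -0.01. Klf4, Klf9 and Klf13 fell at a limma adjusted p below 0.05, and the other 7 members did not pass the test. Members that fell were thus 3 of 10, beside 7.75% of all genes that fell and 6.08% that rose, together 13.8%. At an unadjusted p below 0.05, limma gave 5 members lower and 1 higher. In 7 members all 3 tetraploid values lay below all 3 diploid values, beside 18.2% of all genes. In Klf10 and Klf12 all 3 lay above, beside 19.1% of all genes. Klf5 overlapped, and groups did not overlap in 37.3% of all genes in either direction. The median difference, tetraploid minus diploid, was -0.82 over the members and 0.07 over all genes. With 3 arrays in each line, exact permutation of the arrays has a smallest two-sided p of 0.1, so single members were read from the limma fit over all genes.

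**Figure D1:**
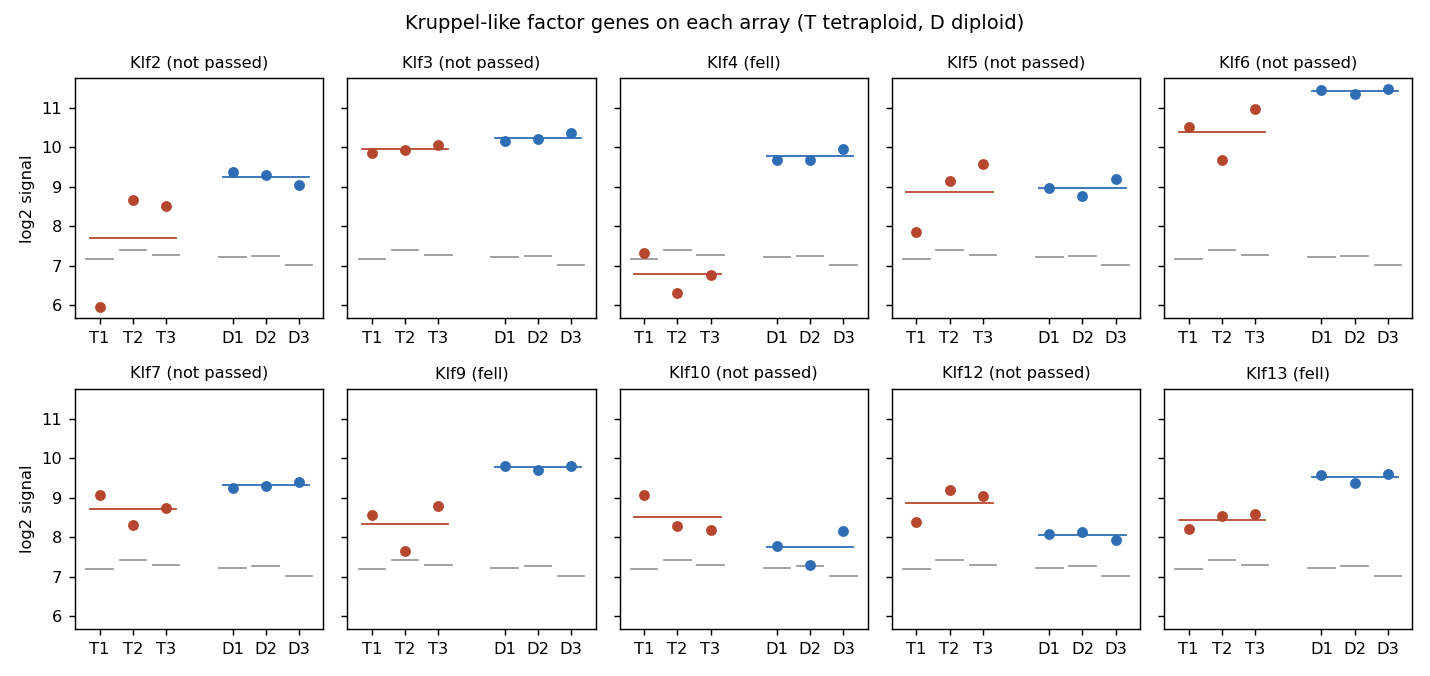
Log2 signal of each member on tetraploid arrays T1 to T3 (red) and diploid arrays D1 to D3 (blue), with the mean of each line as a coloured bar and the background level of each array as a grey tick. The tetraploid points of Klf4 lie between 6.31 and 7.34, at or near background, and its diploid points between 9.68 and 9.96.

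Among the members that bind acetyltransferases, 1 of 5 fell and 4 lay below the diploid values on every tetraploid array, beside 7.75% and 18.2% of all genes. Klf4, which restrains division in epithelia, had tetraploid signals of 7.34, 6.31 and 6.76 (arrays 1 to 3) and diploid signals of 9.68, 9.69 and 9.96 (arrays 1 to 3). The lines were far apart, and only tetraploid array 1 lay above its background level. The difference was -2.98 ± 0.29 (SE, n = 3 per line), or 7.87-fold lower in the tetraploid line (adjusted p = 0.00233). Against the background level as the lowest possible signal it was 5.41-fold lower. Klf4 ranked 162 of 19939 genes by p. It passed the test in each of the 6 fits that left out 1 array (adjusted p 0.00298 to 0.0141).

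Klf2, an activator known from quiescent lymphocytes and from endothelium under flow, stood at 5.95, 8.66 and 8.52 on the tetraploid arrays and at 9.38, 9.30 and 9.06 on the diploid arrays. Tetraploid array 1 was the lowest by far and the only array below background. The difference was -1.53 (95% interval -3.17 to 0.10; adjusted p = 0.194), and -0.65 without that array (adjusted p = 0.0901). Raising low signals to background, which brings array 1 closer to the others, made Klf2 pass as lower (difference -1.12, adjusted p = 0.0371). Its adjusted p ranged up to 0.338 over all alternatives.

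Klf6, which is induced by injury in many tissues, stood at 10.51, 9.68 and 10.98 on the tetraploid arrays and at 11.45, 11.36 and 11.47 on the diploid arrays. Every tetraploid value was lower, but they spread over more than a log2 unit. The difference was -1.04 (95% interval -1.84 to -0.24; adjusted p = 0.0902). Klf7, known for its part in the growth of sensory axons, stood at 9.06, 8.30 and 8.74 against 9.25, 9.30 and 9.38, with a difference of -0.61 (95% interval -1.19 to -0.04; adjusted p = 0.147). Intervals are not adjusted for the number of genes, so one that leaves out 0 is not a call. Klf6 passed the test without tetraploid array 3 (adjusted p = 0.0453) and in 4 of 9 other alternatives, and its adjusted p ranged from 0.0227 to 0.205 over all alternatives. Klf7 passed in 1 of the 9, with values raised to background (adjusted p = 0.0440).

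Klf5, which promotes division in epithelium and smooth muscle and often opposes Klf4, stood at 7.87, 9.16 and 9.58 on the tetraploid arrays and at 8.97, 8.78 and 9.20 on the diploid arrays. Tetraploid array 1 lay below all diploid values and tetraploid array 3 above them. The difference was -0.11 (95% interval -1.14 to 0.91; adjusted p = 0.897), so a change of up to about a log2 unit either way was not excluded. Without tetraploid array 1 its sign turned, to 0.38 (adjusted p = 0.33).

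Of the members that bind CtBP, Klf3 and Klf12, neither passed the test, and they lay on opposite sides. Klf3 stood at 9.87, 9.95 and 10.07 on the tetraploid arrays and at 10.16, 10.22 and 10.36 on the diploid arrays. The lines did not overlap, but the difference was the second smallest of the 10 members, -0.28 (95% interval -0.72 to 0.16; adjusted p = 0.368). Klf12, a repressor first known for acting on the gene of the transcription factor AP-2 alpha, stood at 8.37, 9.19 and 9.05 against 8.08, 8.12 and 7.92. All tetraploid values were higher, with a difference of 0.83 (95% interval 0.21 to 1.45; adjusted p = 0.0838). Klf12 passed the test as higher without tetraploid array 1 (adjusted p = 0.0247) and in 5 of 9 other alternatives (adjusted p 0.0171 to 0.131 over the 9). Tfap2a, the AP-2 alpha gene, lay at 8.40, 5.39 and 3.82 on the tetraploid arrays and at 6.63, 5.60 and 7.13 on the diploid arrays, above background on only 1 array of each line.

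Of the members that bind Sin3A, Klf9 and Klf13 fell and Klf10 lay higher without passing the test. Klf9, a gene that glucocorticoid and thyroid hormones induce, stood at 8.56, 7.65 and 8.79 on the tetraploid arrays and at 9.79, 9.70 and 9.80 on the diploid arrays. All tetraploid values were lower, array 2 the most. The difference was -1.43 ± 0.32 (SE, n = 3 per line), or 2.69-fold lower (adjusted p = 0.0292). Klf13, a factor known for switching on the chemokine gene Ccl5 in T cells, stood at 8.21, 8.53 and 8.58 against 9.56, 9.38 and 9.61. Its lines were tight and about a log2 unit apart, with a difference of -1.08 ± 0.20 (SE, n = 3 per line), or 2.11-fold lower (adjusted p = 0.0176). Both calls ended without diploid array 1, 2 or 3, with an adjusted p of 0.0909 to 0.0932 for Klf9 and 0.0646 to 0.0727 for Klf13, while the differences stayed between -1.66 and -1.09 and between -1.14 and -0.96 over the 6 fits without 1 array. Those 3 fits called 839 to 1262 of all genes, against 2758 with all arrays.

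Klf10, an early target of TGF-beta, stood at 9.06, 8.27 and 8.17 on the tetraploid arrays and at 7.76, 7.29 and 8.15 on the diploid arrays. Tetraploid array 3 and diploid array 3 nearly touched. The difference was 0.76 (95% interval -0.02 to 1.55; adjusted p = 0.182).

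**Figure D2:**
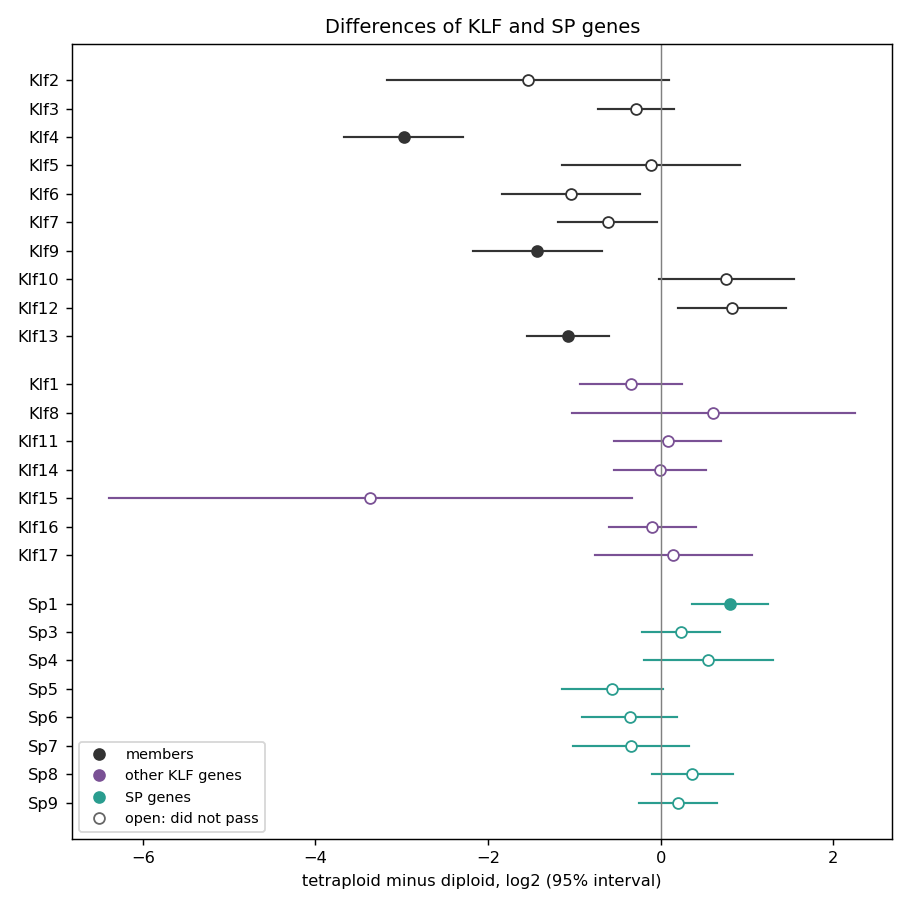
Difference between the lines (tetraploid minus diploid, log2) with its 95% interval for the 10 members, 7 other KLF genes and 8 SP genes; filled points passed the test. Klf4 lies at -2.98, Klf9 at -1.43 and Klf13 at -1.08, and Sp1 at 0.80 is the filled point on the right.

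The members differed in how steady they were. The SD over the diploid arrays was below that over the tetraploid arrays in all 10 members, and the share of all genes with this order was not counted. The gap was small in Klf3 (0.101 against 0.104) and Klf10 (0.431 against 0.486). The SD of the members lay between 0.0574 and 0.431 in the diploid line and between 0.104 and 1.53 in the tetraploid line. The median SD was 0.112 in the diploid line and 0.50 in the tetraploid line, beside 0.235 and 0.345 over all genes, where the diploid line was lower too. Within the tetraploid line, Klf2, Klf3, Klf5, Klf12 and Klf13 were lowest on array 1, Klf4, Klf6, Klf7 and Klf9 on array 2, and Klf10 on array 3. The tetraploid arrays therefore did not differ by a single shift common to all members.

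**Figure D3:**
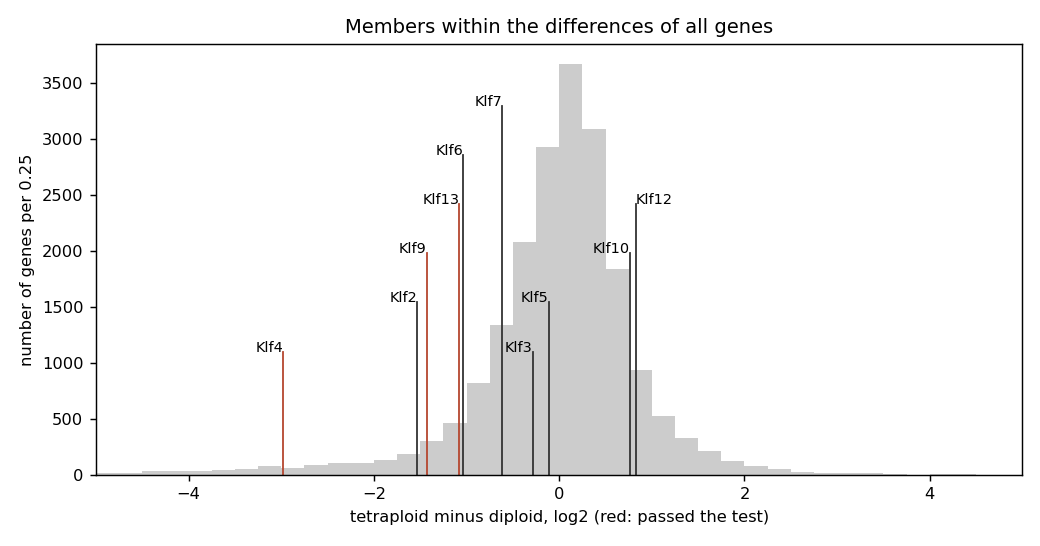
Number of genes per interval of 0.25 in the difference between the lines (tetraploid minus diploid, log2; genes beyond 5 in either direction are outside the axis), with a line at each member, red where it passed the test; line heights only separate the names. Of the 10 members, 8 lie left of 0 and 2 right of it, and Klf4 lies far into the left tail.

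Promoter sequences are shown for Klf4, Klf9 and Klf13, the members that fell, to show what the regions ahead of these genes share. They are the 250 bases before the start that RefSeq (GRCm38.p6) gives, each abutting the annotated gene, 5′ to 3′ on the strand of the gene. Klf4 is at chr4:55532476-55532725, minus strand, Klf9 at chr19:23140976-23141225, plus strand and Klf13 at chr7:63938916-63939165, minus strand. Capitals mark TGACG on either strand, the core of the cAMP response element that CREB and related factors bind. This motif was picked for display after the matches had been seen.
Klf4: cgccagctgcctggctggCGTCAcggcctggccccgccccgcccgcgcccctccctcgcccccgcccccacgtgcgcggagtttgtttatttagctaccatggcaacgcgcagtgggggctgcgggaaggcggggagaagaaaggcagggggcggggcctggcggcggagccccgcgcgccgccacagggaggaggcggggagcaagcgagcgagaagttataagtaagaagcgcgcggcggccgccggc
Klf9: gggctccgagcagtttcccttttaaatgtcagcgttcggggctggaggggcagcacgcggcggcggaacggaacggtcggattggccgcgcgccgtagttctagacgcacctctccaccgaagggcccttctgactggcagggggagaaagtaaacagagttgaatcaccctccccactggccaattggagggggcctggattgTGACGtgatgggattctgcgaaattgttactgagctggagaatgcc
Klf13: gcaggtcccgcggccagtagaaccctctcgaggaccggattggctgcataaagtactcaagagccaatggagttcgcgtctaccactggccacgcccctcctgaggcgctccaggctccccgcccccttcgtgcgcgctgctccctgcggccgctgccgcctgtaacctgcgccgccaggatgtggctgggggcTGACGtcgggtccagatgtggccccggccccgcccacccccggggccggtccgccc

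The promoter table held 1 window for 8 of the 10 members and none for Klf5 and Klf10. In 6 of the 8 the window abuts the annotated gene, while that of Klf7 precedes a start 956 bases inside the gene and that of Klf12 a start 136095 bases inside it. TGACG occurred in 5 of the 8 (Klf2, Klf4, Klf9, Klf12 and Klf13), in members that fell and in members that did not. Of all 32851 windows of the same length 17.8% held it, and 22.2% of the 21751 with a GC content of at least 48.0%, that of Klf12, the lowest among the members. Among the 6 members whose window abuts the gene 4 held it, beside 27.0% of the 9504 windows with a GC content of at least 59.6%, the lowest of those 6. Members had a GC content between 48.0% (Klf12) and 78.4% (Klf3), against a median of 52.4% over all promoters. The CACCC box, the family's own binding sequence, occurred on either strand in 6 of the 8, all but Klf4 and Klf6, beside 52.0% of all promoters. The GC box GGGCGG occurred in 6 of the 8, beside 32.7%, and in Klf4 it occurred 4 times. The CCAAT box occurred in Klf6, Klf9 and Klf13, beside 33.8%. The MEF2 site occurred in Klf2 alone among the 8, at positions -118 to -109 from the start, beside 2.92%. CACGTG occurred in Klf4 and Klf6, beside 6.02%, and the SMAD box CAGAC in Klf3 and Klf12, beside 42.2%. The TATA box TATAAA and the E2F site TTTNNCG (N here C or G) occurred in Klf12 only, in its window inside the gene, beside 12.4% and 5.51%. The CArG box, the full CRE TGACGTCA and the AP-1 site TGANTCA (N here C or G) occurred in no member, beside 1.47%, 1.55% and 4.46% of all promoters. Motifs were searched on both strands, TGACG matches include any full CRE, and a match is a description of the letters only.

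Genes next to the members on their chromosomes were compared as a description of the surroundings, 10 measured genes on each side. Of all genes 7.75% fell and 6.08% rose. Around Klf13 on chromosome 7 the 20 neighbours had a median difference of -0.49, and 3 of them fell, while Klf13 itself lay at -1.08. Around Klf9 on chromosome 19 and Klf7 on chromosome 1 the medians were -0.10 and -0.27, with 4 neighbours that fell around each. Around Klf4 on chromosome 4 the median was 0.08, with 1 neighbour that rose and 1 that fell. Around Klf10 on chromosome 15 it was 0.09, again with 1 in each direction. Around the other 5 members it lay between -0.08 and 0.34. The part of the surroundings in the differences of Klf7, Klf9 and Klf13 was not tested.

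None of the 7 other KLF genes measured passed the test in limma, with 1 lower at an unadjusted p below 0.05, and their median difference was -0.01. Klf11, the close relative of Klf10, lay at 9.26 ± 0.16 against 9.17 ± 0.42 (SD, n = 3; 95% interval of the difference -0.54 to 0.70). Klf14 lay at 10.82 ± 0.19 against 10.82 ± 0.27, with an interval of -0.54 to 0.53, and Klf16 at 9.01 ± 0.26 against 9.11 ± 0.11, with an interval of -0.60 to 0.41. These 3 were above background on all arrays, and their intervals leave out a change as large as that of Klf4. Klf1, Klf15 and Klf17 lay at or below background on all 6 arrays, and Klf8 on all but tetraploid array 3. The deposited difference of Klf15 was -3.36 (adjusted p = 0.133), but no fold is given for it. It passed the test without tetraploid array 1 (adjusted p = 0.0125), with all its values still at or below background.

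Among the 8 measured SP factors, which compete with KLF proteins for GC boxes, only Sp1 rose, beside 6.08% of all genes. It stood at 10.00, 10.17 and 10.09 on the tetraploid arrays and at 9.17, 9.26 and 9.41 on the diploid arrays, without overlap. The difference was 0.80 ± 0.19 (SE, n = 3 per line), or 1.75-fold higher (adjusted p = 0.0340). The call ended without array 2 or 3 of the tetraploid line or any single array of the diploid line (adjusted p 0.0634 to 0.132). The other 7 measured SP genes did not pass. Of these Sp3 had a difference of 0.24 and Sp9 of 0.20, while Sp4, Sp5, Sp6, Sp7 and Sp8 lay at or below background on all arrays.

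Among cofactors of the family only Hdac3 was called, as higher. Of 11 measured corepressor and coactivator genes 1 rose, beside 6.08% of all genes, and 10 did not pass. On every tetraploid array 7 lay above the diploid values, beside 19.1% of all genes, and the median difference was 0.36. The counts were 5 that rose and 1 that fell with values raised to background, and 3 and 1 with trend and robust eBayes. These settings called 3947 and 4011 of all genes, against 2758 in the test used for the calls. Hdac3, a histone deacetylase of corepressor complexes, had a mean of 11.84 ± 0.11 in the tetraploid line and 10.94 ± 0.04 in the diploid line (SD, n = 3 each), 1.86-fold higher (adjusted p = 0.0224). That call ended without array 2 of the tetraploid line or any single array of the diploid line (adjusted p 0.0554 to 0.0974). Sin3a, the partner of Klf9, Klf10 and Klf13, had a difference of 0.68 (adjusted p = 0.0840), Ctbp1 of 0.36 (adjusted p = 0.32) and Ctbp2 of -0.79 (adjusted p = 0.0572).

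Of 7 ubiquitin ligase genes whose products are known to act on KLF proteins, 2 fell and 5 did not pass, with a median of -0.71. Over all genes 7.75% fell. Fbxo32, which marks Klf4 for degradation, stood at 6.71, 7.34 and 7.30 on the tetraploid arrays and at 9.32, 9.50 and 9.75 on the diploid arrays, only 1 tetraploid value being above background. With values raised to background it was 4.70-fold lower, and as deposited 5.33-fold (adjusted p = 0.00277). Wwp1, which acts on Klf2 and Klf5, was 1.96-fold lower (adjusted p = 0.0353). Its call ended without array 2 or 3 of the tetraploid line or any single array of the diploid line (adjusted p 0.0763 to 0.128).

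The kinase ERK5 and the MEF2 factors switch on Klf2 and Klf4 in other cells. Of 7 measured genes of this arm 1 fell, beside 7.75% of all genes, and 6 did not pass, with a median of -0.44. Mef2a stood at 9.03, 9.18 and 9.76 on the tetraploid arrays and at 10.54, 10.48 and 10.41 on the diploid arrays, 2.22-fold lower (adjusted p = 0.0259). Its call ended without array 1 or 2 of the tetraploid line or any single array of the diploid line (adjusted p 0.0507 to 0.0961). Mapk7, which encodes ERK5, had a difference of 0.56 (adjusted p = 0.0907). Mef2c stood at 7.90, 4.64 and 5.49 against 7.43, 7.33 and 7.56 and did not pass (adjusted p = 0.266).

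Serum induces Klf2, Klf4, Klf6 and Klf10 as immediate early genes, and others of that kind were read beside them. Of 21 measured 8 fell, namely Fos, Fosb, Nr4a1, Btg2, Atf3, Dusp1, Zfp36 and Ier3, and 13 did not pass, with a median of -1.02. Over all genes 7.75% fell. The AP-1 gene Fos stood at 7.80, 8.05 and 8.10 on the tetraploid arrays and at 11.03, 11.26 and 10.70 on the diploid arrays, 8.08-fold lower (adjusted p = 8.95e-04). Its difference of -3.01 was close to that of Klf4, -2.98. Fosb stood at 7.86, 6.95 and 7.81 against 10.46, 10.42 and 10.39 (7.37-fold lower as deposited and 6.64-fold with values raised to background, adjusted p = 0.00230). Of the 21, 14 lay below the diploid values on every tetraploid array and 1 above, beside 18.2% and 19.1% of all genes. Differences were negative in 17 and positive in 4. Egr1 lay below on every tetraploid array but did not pass (difference -0.44, adjusted p = 0.168). Not all genes of the kind lay lower. Fosl1 had a difference of 0.90 (adjusted p = 0.162), Myc of 0.43 (adjusted p = 0.351) and Ier2 of -0.01 (adjusted p = 0.985). The count that fell was 6, 7 and 8 without tetraploid array 1, 2 and 3, and 4 without any 1 diploid array, where Fos and Fosb were still called. In the alternatives that kept all arrays it ranged from 7 to 11.

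TGF-beta signalling lies upstream of Klf10. Of 11 genes of the pathway and its early response that were measured 7 fell and 4 did not pass, with a median of -1.38. Over all genes 7.75% fell. All 3 ligand genes fell, Tgfb1 4.0-fold, Tgfb2 with a difference of -1.82 and Tgfb3 with -2.01, as did the receptor gene Tgfbr1 with -1.38. The early targets Ccn2, Smad7 and Skil fell by 3.52, 1.60 and 1.34 on the log2 scale. Klf10, an early target too, lay on the other side at 0.76. Tgfbr2, Smad2, Smad3 and Smad4 had differences between -0.28 and 0.19 and did not pass. The count was 3 without any 1 diploid array and 5 to 7 without 1 tetraploid array.

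The glucocorticoid response list, which holds the receptor that induces Klf9 and other targets of it, was read beside Klf9. None of its 10 measured genes passed the test in limma, with 4 higher and 0 lower at an unadjusted p below 0.05, and the median was 0.41. The count that rose was 4 with values raised to background, 3 with genes above the median level, 3 with trend and robust eBayes, and 1 with array weights or without tetraploid array 1. The first 3 of these settings called 3947, 3135 and 4011 of all genes, against 2758 in the test used for the calls. Ddit4 had the largest difference, 0.85 (adjusted p = 0.105), and passed without tetraploid array 1 (adjusted p = 0.0324) and in 4 of 9 other alternatives (adjusted p 0.0276 to 0.175 over the 9). The receptor gene Nr3c1 had a difference of 0.05 (adjusted p = 0.916).

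**Figure D4:**
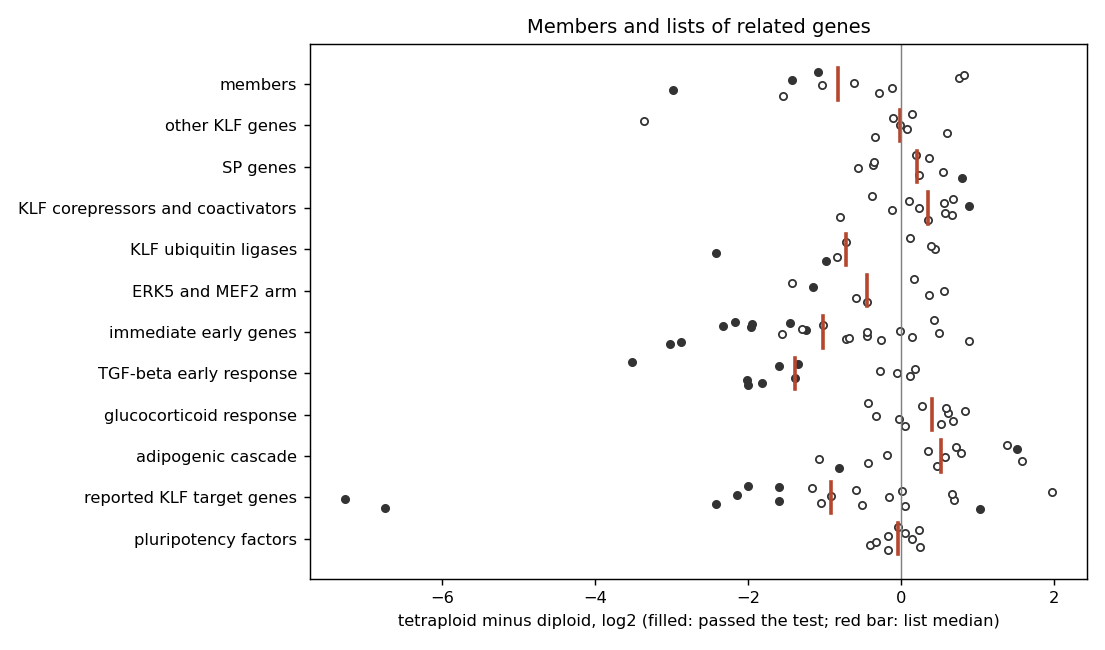
Difference between the lines (tetraploid minus diploid, log2) of each gene in the members and in 11 lists of related genes; filled points passed the test and red bars are list medians. The medians of the immediate early and TGF-beta lists lie at -1.02 and -1.38, beside -0.82 for the members, and those of the glucocorticoid and adipogenic lists at 0.41 and 0.53.

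Genes reported elsewhere, mostly in other cell types, as regulated by single KLF proteins lay lower more often than higher. Differences were negative in 13 and positive in 6. On every tetraploid array 11 lay below the diploid values and 2 above, beside 18.2% and 19.1% of all genes. Among the 19 measured, 1 rose, 7 fell and 11 missed the threshold, and the median was -0.91. Over all genes 6.08% rose and 7.75% fell. The anticoagulant receptor gene Thbd, a Klf2 target of endothelium, stood at 2.80, 1.63 and 4.16 on the tetraploid arrays and at 10.43, 10.06 and 9.92 on the diploid arrays, at least 7.21-fold lower (adjusted p = 0.00109). The division inhibitor gene Cdkn1c stood at 4.62, 4.38 and 1.57 against 10.16, 10.45 and 10.18, at least 7.86-fold lower (adjusted p = 0.00374). Cdkn1b, a related inhibitor gene, was 2.04-fold higher (adjusted p = 0.0411), a call that ended without array 2 or 3 of the tetraploid line or any single array of the diploid line (adjusted p 0.0832 to 0.140). Ccl5, the Klf13 target, stood at 8.64, 7.87 and 6.89 against 4.90, 5.48 and 7.08 and did not pass (adjusted p = 0.0901). Smad7 and Tgfb1 stand in this list and in the TGF-beta list. The count that fell was 4 without any 1 diploid array and 6 to 8 without 1 tetraploid array.

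In the adipogenic cascade, in which several KLF proteins act, 1 of 12 genes rose, 1 fell and 10 did not pass, with a median of 0.53. Over all genes 6.08% rose and 7.75% fell. Gata2, which restrains fat cell formation, was 2.87-fold higher as deposited (adjusted p = 0.0460), a call that ended without array 1 or 2 of the tetraploid line or any single array of the diploid line (adjusted p 0.0972 to 0.147). Cebpa fell as deposited (adjusted p = 0.0394) but lay at or below background on all 6 arrays, so no fold is given. Its call ended without any 1 of the 6 arrays (adjusted p 0.0513 to 0.144). Of 9 pluripotency factors that work with Klf2, Klf4 and Klf5 in embryonic stem cells, none passed the test in limma and 0 reached an unadjusted p below 0.05. Pou5f1 lay at or below background on all 6 arrays, and Nanog had the largest difference, -0.40 (adjusted p = 0.447).

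Markers of cell types that use KLF genes strongly were read beside these values. The fibroblast markers Vim, Col1a1 and Col1a2 lay above 12 on all arrays. The mean over 13 fibroblast markers was 10.14 to 10.61 on the tetraploid arrays and 11.41 to 11.72 on the diploid arrays, while the median difference over the 13 was -0.52. In Fap and Lum, which lay furthest apart, all tetraploid values were below background. The 3 markers that fell, beside 7.75% of all genes, were Fap (at least 4.09-fold lower), Lum (at least 3.34-fold lower) and Col1a1 (1.83-fold lower). Of the 13, 9 had a negative difference and 4 a positive one. Only Pdgfra had all tetraploid values above all diploid values (difference 1.39, adjusted p = 0.0619). It passed as higher with values raised to background (adjusted p = 0.0124). The count that fell was 2, 2 and 4 without tetraploid array 1, 2 and 3, and 2, 1 and 1 without diploid array 1, 2 and 3. The call of Lum ended without diploid array 2 or 3 (adjusted p 0.0659 and 0.0632). Of 12 macrophage markers 2 fell, Lyz2 and Cd53, beside 7.75% of all genes. On every tetraploid array 8 lay below the diploid values, beside 18.2% of all genes. At or below background on all 6 arrays lay 7 of the 12, Ptprc and Adgre1 among them. The mean over the 12 was 3.93 to 4.36 on the tetraploid arrays and 5.08, 5.98 and 6.84 on diploid arrays 1 to 3. On those diploid arrays Klf4 stood at 9.68, 9.69 and 9.96 and Klf2 at 9.38, 9.30 and 9.06. The call of Lyz2 ended with values raised to background (adjusted p = 0.0761) and without tetraploid array 2 or 3 or diploid array 2 or 3 (adjusted p 0.0525 to 0.0973), that of Cd53 with values raised to background (adjusted p = 0.766). Of the 7 alternatives that kept all arrays and tested Lyz2, 4 called it.

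Of 11 endothelial markers 3 fell, Flt1, Kdr and Emcn, and 1 rose, Egfl7, beside 7.75% and 6.08% of all genes. At or below background on all 6 arrays lay 6 of the 11, Pecam1, Cdh5 and Tie1 among them, while Cldn5 lay above it on all 6. Flt1 stood at 6.46, 7.52 and 4.36 on the tetraploid arrays and at 10.48, 10.75 and 10.52 on the diploid arrays. Its difference was -4.47 as deposited (adjusted p = 0.0115) and -3.26 with values raised to background. Kdr stood at 8.31, 7.56 and 8.53 on the diploid arrays, with all tetraploid values below background. The mean over the 11 markers was 6.05 to 6.34 on the tetraploid arrays and 7.03 to 7.08 on the diploid arrays. Their median difference was -0.03, with 5 higher and 6 lower. With low signals set to background, Emcn and Egfl7 were no longer called (adjusted p 0.337 and 0.0550), and that of Egfl7 also ended without tetraploid array 2 or 3 or diploid array 1 or 2 (adjusted p 0.0594 to 0.104). Of 12 epithelial markers 1 fell, Krt18, beside 7.75% of all genes, and 6 lay at or below background on all 6 arrays. Their mean was 6.69 to 6.95 on the tetraploid arrays and 6.83 to 7.01 on the diploid arrays. The call of Krt18 ended without tetraploid array 2 (adjusted p = 0.0546), with values raised to background (adjusted p = 0.463) and with the replicate number as a block. The part of macrophage, endothelial or epithelial transcripts in the differences of Klf2 and Klf4 was not tested.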

How the data were processed

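The deposited values, per the labels a summary made with Affymetrix Expression Console by the authors (version, algorithm, background correction and normalization not given in the sources used here), are 1 log2 signal per probe set and array. Their scale was checked: 2 to the power of each value below 1000 on the linear scale was a whole number of hundredths (tolerance 0.001) in 100% of cases, with a floor of 1. Arrays give no counts, and their number limits the precision. Of 28944 probe sets 21789 carried 1 gene symbol, 1621 several and 5534 none. Per gene the single-symbol probe set with the highest mean over 6 arrays was kept, giving 19939 genes. Names follow RefSeq (GRCm38.p6).

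Tests used limma 3.58.1 under R 4.3.3 (lmFit and eBayes, two-sided), Benjamini-Hochberg adjusted over all genes and called below 0.05. The fit was tested on simulated data in which both lines had the diploid SD of each gene. That test does not cover the larger tetraploid SD of the members. Where all arrays of a line lay at or below background, a fold is a lower bound, taken after signals under background were set to it. Members and all 15 lists (178 entries, 170 measured, 1 through a synonym), including the 4 marker lists, were chosen with earlier results of these data known. The background level was taken from that earlier work. Alternatives were quantile normalization, median centring, signals raised to background, filters at the median and 25th percentile of level, the mean of all probe sets, trend and robust eBayes, array weights, the replicate number as a block, and each array left out. Protein sequences were not used here. Every member and other KLF or SP gene is named; of other lists, the 2 largest called differences in each direction, or else the largest difference. Further listed genes, such as Sin3a, Myc, Tfap2a, Kdr or Col1a1, were named after their values were seen. List entries without a measured value were not analysed here.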

Additional observations from a re-analysis of the deposited data

How the results depend on the processing

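No member that fell changed sign under any of the 15 alternatives. Members called lower numbered 3 with all arrays, 6 with values raised to background and 1 to 4 without 1 array. They numbered 4 with genes above the median or the 25th percentile of level and with trend and robust eBayes. Members called higher numbered 0, and 1, Klf12, with values raised to background, with genes above the median or the 25th percentile of level, with trend and robust eBayes and with array weights, and 0 to 1 without 1 array. The settings that called more members also called more of all genes, against 2758 in the test used for the calls. The numbers were 3947 with values raised to background, 4011 with trend and robust eBayes and 3085 with array weights. They were 3135 and 3271 with genes above the median and the 25th percentile of level. All genes called ranged from 839 to 2522 without 1 array, against 2758, and listed genes called from 17 to 37, against 38. With the replicate number as a block (replicate block) 1647 of all genes, 25 listed genes and 2 members were called, Klf13 being lost (adjusted p = 0.0551). The calls of Sp1, Hdac3, Wwp1, Mef2a, Gata2, Cdkn1b, Egfl7, Cebpa and Krt18 ended with the block too, and that of Cebpa also with trend and robust eBayes. Deviations of same-numbered arrays correlated at 0.10, 0.0308 and -0.0461 across genes. Low correlations over all genes, many of them at background, cannot show whether the samples were paired, and the labels do not say. Signs turned for Klf5, to 0.11 with array weights, and, with values raised to background, for further genes named here: Klf1, Klf15, Sp5, Sp6, Sp7, Pou5f1, Tie1, Ptprc and Adgre1 (to 0.12), Mef2c (to 0.09) and Tfap2a (to 0.49), none of which had passed, and Cebpa and Cd53, which had passed as lower and were no longer called (to 0.12 and 0.048). Counts for lists moved too: with values raised to background, with genes above the median level and with trend and robust eBayes alike, 4 ubiquitin ligase genes fell, and 2 genes of the ERK5 and MEF2 arm fell and 1 rose. Macrophage markers that fell numbered 0 with values raised to background and 5 with trend and robust eBayes. No macrophage marker was above the median level, so that setting tested none of them. Fibroblast markers that fell numbered 4, 2 and 6 with values raised to background, genes above the median level, and trend and robust eBayes. In each of these settings 1 fibroblast marker rose. Without 1 array Klf5 ranged from -0.47 to 0.38, Klf11 from -0.15 to 0.24, Klf14 from -0.15 to 0.11, Klf16 from -0.24 to 0.016 and Klf17 from -0.19 to 0.43. The cause of these changes was not tested, beyond the smaller number of arrays. With 3 arrays a line, members with an unsteady tetraploid signal were measured coarsely: a difference of -1.53 in Klf2 did not pass.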
